A study of Mus musculus with 4 samples.

Results

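The genes described here encode proteins of the neuronal cytoskeleton and of neuronal RNA binding, and are widely used as markers of young neurons. They are Dcx, Tubb3, Map2, Mapt, Crmp1, Stmn2, Ina, Gap43, Elavl3 and Elavl4. They were chosen by symbol from count tables that hold 23420 genes, and all 10 were found. All passed the filter on low counts, Dcx only through the libraries of the treated cells. RNA was sequenced from wild type E14 cells, a mouse embryonic stem cell line kept without feeder cells in serum and leukemia inhibitory factor (LIF). All-trans retinoic acid (ATRA) was given at 1 µM for 24 h to the ATRA group, and the control group was sampled at 0 h, with 2 libraries in each. A treatment label on the ATRA libraries gives a millimolar unit in place of the micromolar one of the titles and the protocol. The labels name dimethyl sulfoxide as the vehicle without saying whether the 0 h cells received it, so ATRA and the time in culture cannot be told apart. A neural differentiation through embryoid bodies is described as well, but all 4 libraries are labelled embryonic stem cells. The series title places the work in RXR-mediated neurogenesis, and the comparison asks how neuronal genes stand after 1 day of ligand.

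Microtubules give a growing neurite its shape and its tracks for transport. Tubb3 encodes the neuronal beta-tubulin that is built into them. Dcx, Map2 and Mapt (tau) encode proteins that bind and stabilize microtubules, and Crmp1 and Stmn2 encode proteins that act on tubulin assembly in growth cones. Ina encodes alpha-internexin, an intermediate filament protein of developing neurons, and Gap43 a membrane protein of growth cones. Elavl3 and Elavl4 (HuC and HuD) are neuronal RNA-binding proteins that bind AU-rich elements and stabilize their target transcripts. Retinoic acid is a standard agent for turning embryonic stem cells toward neural fates, a process in which neurons appear only after a progenitor stage.

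The members did not share 1 direction after 24 h of ATRA. In values scaled to library size, Dcx and Elavl4 were higher in both ATRA libraries, Tubb3, Crmp1, Ina, Stmn2 and Elavl3 were lower, and Map2, Mapt and Gap43 overlapped between the groups. In edgeR's quasi-likelihood test (n = 2 against 2, p adjusted over 14256 genes by Benjamini-Hochberg, threshold 0.05) 0 of the 10 members passed in either direction, where 0.603% of all tested genes passed, 0.435% higher and 0.168% lower. At an unadjusted p under 0.05 there were 5 members and 5721 genes, and DESeq2 called 5 members and 30.5% of all tested genes. A count of 2 members above and 5 below with no overlap is to be read against 40.0% and 41.5% of all tested genes. The summed level of the members was lower with ATRA, in CPM (counts scaled by TMM to a common library size). It was 660 and 693 CPM in the control libraries and 413 and 353 CPM in the ATRA libraries. Stmn2 carried much of this sum, with a mean of 355 CPM in the controls and 227 CPM with ATRA. Tubb3 was next in the controls, with a mean of 105 CPM there and 14.9 CPM with ATRA. In RNA from whole cultures, fewer cells of a type and less RNA per cell cannot be told apart.

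The ATRA libraries differed from each other along the GC content of transcripts, and most members followed that difference. Control libraries held 31005634 and 21484812 counts in genes, and ATRA libraries 13337972 and 11086233. In the GC decile that holds Dcx and Elavl4 (decile 1, the lowest), ATRA replicate 2 stood above ATRA replicate 1 by a median of 0.84 on the log2 scale. In the decile that holds Tubb3 and Crmp1 (decile 9), the median of the same ratio was −1.07. Fold changes between the groups were therefore also computed after a GC correction of each library, which takes out any difference tied to GC content, whether it came from the library or from the treatment. With that correction Dcx rose and Tubb3 and Stmn2 fell, so that 3 of the 10 passed, against 16.7% of all tested genes (8.82% higher and 7.86% lower). The corrected calls rest on both controls, since 0 members passed without control replicate 1 or control replicate 2, where 0.371% and 0.457% of all tested genes did. With ATRA replicate 1 or ATRA replicate 2 left out, 5 and 4 of the 10 passed, beside 49.8% and 35.7% of all genes. After correction 3 members (Dcx, Elavl4 and Mapt) had both ATRA libraries above both controls and 3 (Tubb3, Stmn2 and Crmp1) had both below, as 35.5% and 34.8% of all tested genes did. In the uncorrected fit, Tubb3 was the 1 member that passed without control replicate 1 and the 1 that passed without control replicate 2, where 0.573% and 2.25% of all genes passed. Without ATRA replicate 1 or 2, 8 and 7 of the 10 passed, beside 73.4% and 52.1% of all genes. The lone library of a group was assumed to vary like the other group.

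**Figure D1:**
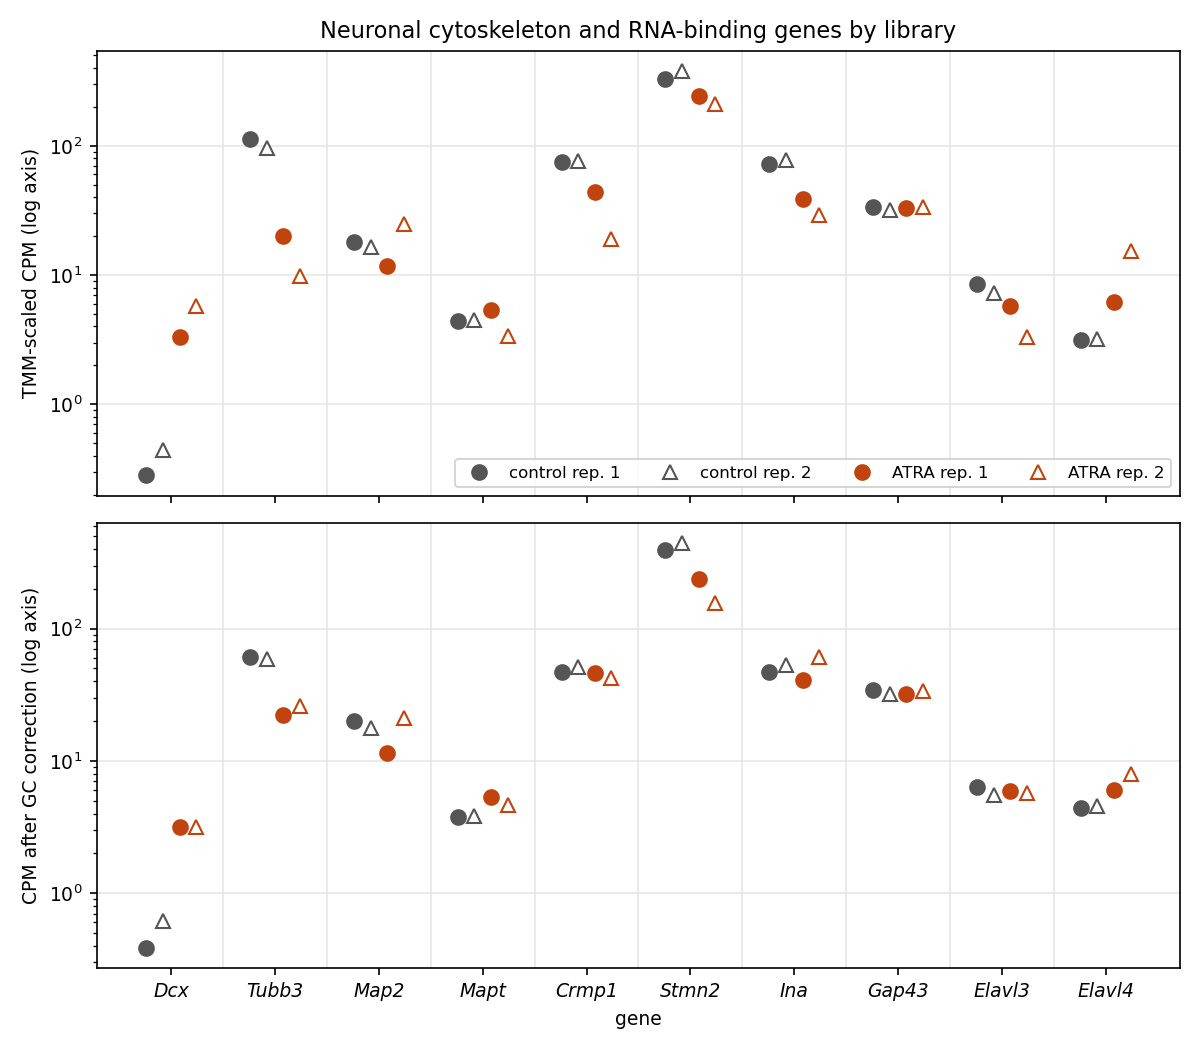
Level of each member in the 4 libraries, as CPM scaled by TMM (top) and after GC correction (bottom), on log axes. Grey symbols are control libraries and red symbols ATRA libraries, with circles for replicate 1 and triangles for replicate 2. Dcx stands above the controls and Tubb3 and Stmn2 below them in both panels, while Crmp1, Ina and Elavl3 lie below them at the top and near them at the bottom.

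Dcx, the gene of doublecortin, a microtubule-binding protein of migrating young neurons, lies on the minus strand of chromosome X, from 143855842 to 143933311 (coordinates of GRCm38, from GENCODE M21). It had 9 and 10 counts in control replicates 1 and 2, and 47 and 56 counts in ATRA replicates 1 and 2, from libraries of lower depth. These were 0.282 and 0.445 CPM against 3.32 and 5.78 CPM, so that both ATRA libraries were above both controls. Dcx was thereby 3.64 ± 0.54 (SE) higher in log2 units (edgeR, adjusted p = 0.0601). After GC correction it was 2.69 ± 0.38 (edgeR, adjusted p = 0.0177), a 6.45-fold rise. The ATRA libraries, 0.80 apart on the log2 scale before correction, then stood at 3.19 and 3.18 CPM. Without control replicate 1 or 2 the corrected value was 2.36 or 3.01 and did not pass (edgeR, adjusted p = 0.192 and 0.131). Dcx had the lowest CPM of the 10 members in the controls. These control levels were below the expression filter, which Dcx passed through the ATRA libraries alone. Genes this low in the controls were tested only where the ATRA libraries were higher, which limits what its test can show. In the control libraries 3 counts, the limit set by a count of 0, stand for 0.0940 and 0.134 CPM.

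Tubb3, the neuronal beta-tubulin gene, lies on chromosome 8 from 123411424 to 123422015, plus strand. It had 3610 and 2153 counts in the controls and 283 and 95 with ATRA. In CPM this was 113 and 95.9 against 20.0 and 9.80, so that the higher ATRA library was still far below the lower control. Its log2 fold change was −2.80 ± 0.42 (6.98-fold lower; edgeR, adjusted p = 0.0620). After GC correction Tubb3 fell by 1.33 on the log2 scale (SE 0.13, 2.51-fold lower; edgeR, adjusted p = 0.00916). The corrected levels were 61.1 and 59.3 CPM in the controls and 22.4 and 26.1 CPM with ATRA. The value was negative under all 17 alternative settings, from −3.43 to −1.20. In the corrected fit it did not pass without control replicate 1 or 2 (edgeR, adjusted p = 0.130 and 0.102).

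The promoters of Dcx and Tubb3 differ in base composition as their transcripts do, and are shown with 1 of those of Elavl4, the other member with both ATRA libraries above both controls in CPM. Each window runs from 250 bases before to 50 bases after a start site annotated by RefSeq (GRCm38.p6), 5′ to 3′ on the gene's strand. Windows were found for 7 of the 10 members, 12 windows in all. Capitals mark matches on either strand to 5 short motifs. AGGTCA is the repeat unit of nuclear receptor elements. CAGCTG is an E-box, read by proneural factors. A second E-box is CATCTG. Part of the REST element is given by CAGCAC. The TATA box was searched as TATAAA. The windows are chrX:143933170-143933469 (minus strand) for Dcx, chr8:123411303-123411602 (plus strand) for Tubb3, and chr4:110287478-110287777 (minus strand), one of 4 windows of Elavl4. The Elavl4 window was picked after its letters were seen, for its matches to 3 of the motifs. The other windows of Elavl4, not shown, are at 46.0%, 47.3% and 57.0% GC, and the last of these has a CpG observed over expected ratio of 0.944 and 0 matches.
Dcx: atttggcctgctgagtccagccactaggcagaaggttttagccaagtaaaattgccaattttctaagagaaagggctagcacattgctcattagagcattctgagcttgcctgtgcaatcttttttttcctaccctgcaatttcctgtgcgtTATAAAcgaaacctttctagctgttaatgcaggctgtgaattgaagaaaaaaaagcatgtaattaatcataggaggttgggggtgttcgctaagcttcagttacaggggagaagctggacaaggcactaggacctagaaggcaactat
Tubb3: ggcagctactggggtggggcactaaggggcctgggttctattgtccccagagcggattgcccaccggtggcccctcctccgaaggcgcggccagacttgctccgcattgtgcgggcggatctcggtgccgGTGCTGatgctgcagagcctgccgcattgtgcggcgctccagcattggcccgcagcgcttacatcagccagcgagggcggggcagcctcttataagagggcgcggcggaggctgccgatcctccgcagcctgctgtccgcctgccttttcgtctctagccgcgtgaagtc
Elavl4: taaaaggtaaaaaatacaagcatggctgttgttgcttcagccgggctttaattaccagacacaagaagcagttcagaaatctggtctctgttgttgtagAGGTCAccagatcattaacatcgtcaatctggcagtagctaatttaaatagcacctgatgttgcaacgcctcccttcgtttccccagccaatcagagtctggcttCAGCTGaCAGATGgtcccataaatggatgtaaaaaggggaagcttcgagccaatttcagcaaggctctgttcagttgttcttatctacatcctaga
The Dcx window is 43.0% GC with a CpG observed over expected ratio of 0.219, and the Elavl4 window 43.7% with 0.350. The Tubb3 window is 67.3% GC with a ratio of 0.765. The medians over 32851 such windows were 52.7% and 0.384. A match to AGGTCA was present in 3 of the 12 member windows and in 16.3% of all windows, and to CAGCTG in 4 of the 12 and in 16.3%. CATCTG was in 3 of the 12 (17.2% of all), CAGCAC in 2 (20.2%) and TATAAA in 3 (13.6%). Windows of 1 gene can overlap, and a match describes letters only.

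Stmn2, the gene of stathmin-2 (SCG10), which binds tubulin in growth cones, was the most abundant member. It lies on chromosome 3 from 8509360 to 8561606, plus strand. Its counts were 10526 and 8521 in the controls and 3463 and 2029 with ATRA, or 330 and 380 CPM against 245 and 209 CPM. The groups did not overlap, and both controls stood above both ATRA libraries. Uncorrected, Stmn2 was at −0.64 ± 0.26 in log2 units (edgeR, adjusted p = 0.127). Genes of its GC decile had a median of 0.60, and after GC correction Stmn2 fell by 1.09 (SE 0.21, 2.12-fold lower; edgeR, adjusted p = 0.0320). The corrected levels were 392 and 442 CPM in the controls and 237 and 156 CPM with ATRA. Without ATRA replicate 1 the corrected value was −1.42 and without ATRA replicate 2 −0.81, both past the threshold, and it did not pass without control replicate 1 or 2 (edgeR, adjusted p = 0.170 and 0.181).

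Crmp1, which encodes a collapsin response mediator protein of growth cones, lies on chromosome 5 from 37241940 to 37292133, plus strand. It had 75.5 and 76.3 CPM in the controls and 43.7 and 19.0 CPM with ATRA. The controls were nearly equal, and the ATRA libraries were lower but more than 2-fold apart. The fold change of Crmp1 was −1.27 ± 0.44 in log2 units (edgeR, adjusted p = 0.101), which was −2.01 and passed without ATRA replicate 1 (edgeR, adjusted p = 4.74e-08), and −0.79 without ATRA replicate 2 (0.000233). After GC correction it was −0.14 ± 0.13 (edgeR, adjusted p = 0.453), and the levels ran from 42.4 CPM in ATRA replicate 2 to 51.4 CPM in control replicate 2. Crmp1 lay within 0.04 of the median log2 fold change of its GC decile.

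The microtubule-binding genes Map2 and Mapt overlapped between the groups before GC correction. Map2, the gene of the dendritic microtubule-associated protein, lies on chromosome 1 from 66175273 to 66442583, plus strand. It had 18.0 and 16.4 CPM in the controls and 11.8 and 24.8 CPM with ATRA, so that 1 ATRA library was below both controls and the other above. Its log2 fold change was 0.08 ± 0.43 (edgeR, adjusted p = 0.894), and −0.22 ± 0.30 (0.631) after GC correction. Leaving out ATRA replicate 1 or 2 gave 0.51 (edgeR, adjusted p = 0.0167) and −0.53 (0.0296), so its sign rests on which ATRA library is read. Map2 was the member whose ATRA libraries stayed farthest apart after correction, by 0.87 on the log2 scale. Mapt, the gene of the axonal protein tau, lies on chromosome 11 from 104231390 to 104332090, plus strand. It had 4.42 and 4.50 CPM in the controls and 5.37 and 3.40 CPM with ATRA, on both sides of the controls. For Mapt the log2 fold change was −0.01 ± 0.39 (edgeR, adjusted p = 0.981), and 0.41 ± 0.24 (0.258) after correction. The corrected levels of Mapt were 3.75 and 3.84 CPM in the controls and 5.36 and 4.67 CPM with ATRA, so that both ATRA libraries were then above both controls without passing the test.

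Ina, the alpha-internexin gene, lies on chromosome 19 from 47014698 to 47025327, plus strand. It had 72.8 and 77.2 CPM in the controls and 39.1 and 29.2 CPM with ATRA, with no overlap. On the log2 scale Ina was at −1.13 ± 0.29 (edgeR, adjusted p = 0.0804). After GC correction it was at 0.01 ± 0.21 (edgeR, adjusted p = 0.978), where ATRA replicate 1 (41.1 CPM) was below the controls (47.3 and 53.5 CPM) and ATRA replicate 2 (61.5 CPM) above them. Of the merged exons of Ina, 14.1% overlap exons of Nt5c2 on the opposite strand, and whether the counting used strand was not stated.

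Gap43, a gene of the growth cone membrane, lies on chromosome 16 from 42248442 to 42340651, minus strand. It was at 33.7 and 32.0 CPM in the controls and at 32.8 and 33.7 CPM with ATRA. The 4 libraries lay closer together than those of any other member, before any correction. Its log2 fold change was 0.02 ± 0.28 (edgeR, adjusted p = 0.965), and −0.01 ± 0.13 (0.974) after GC correction. Over all 17 alternative settings it stayed between −0.07 and 0.05, and it was called in 0 of them.

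The RNA-binding genes Elavl3 and Elavl4 were on opposite sides of 0 before GC correction. Elavl3, on chromosome 9 from 22015005 to 22052023, minus strand, had 8.56 and 7.26 CPM in the controls and 5.80 and 3.30 CPM with ATRA. Its log2 fold change was −0.79 ± 0.41 (edgeR, adjusted p = 0.190), and −0.02 ± 0.22 (0.958) after correction. Elavl4, on chromosome 4 from 110203722 to 110351909, minus strand, had 100 and 72 counts in the controls and 88 and 148 with ATRA. These were 3.13 and 3.21 CPM against 6.22 and 15.3 CPM, with the ATRA libraries 1.30 apart on the log2 scale. The log2 fold change of Elavl4 was 1.75 ± 0.51 (edgeR, adjusted p = 0.0884), and 2.25 and 0.98 without ATRA replicate 1 or 2, both past the threshold. After GC correction it was 0.65 ± 0.24 (edgeR, adjusted p = 0.114), and its levels were 4.37 and 4.54 CPM in the controls and 6.0 and 7.98 CPM with ATRA. With the transcript GC content at 54.1% for Elavl3 and 38.9% for Elavl4, the correction moved the genes in opposite directions.

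**Figure D2:**
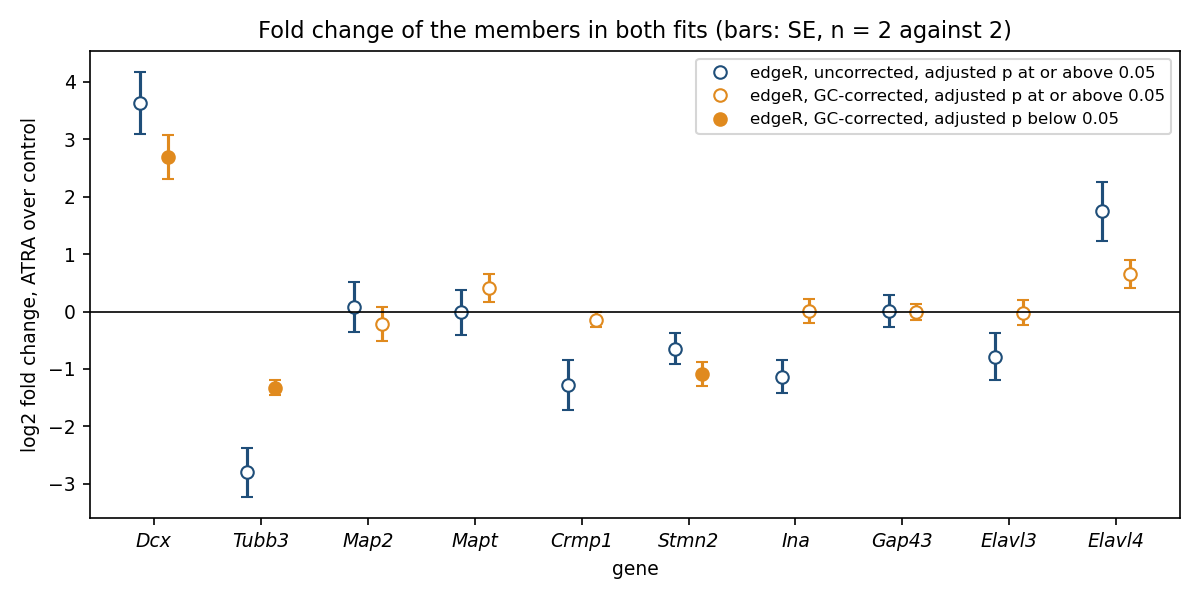
Log2 fold change of each member, ATRA over control, in the uncorrected (blue) and the GC-corrected fit (orange), with bars for the SE (n = 2 against 2). Filled symbols mark an adjusted p below 0.05, which Dcx, Tubb3 and Stmn2 reached after correction and 0 members before it.

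Across the members, the uncorrected fold change followed transcript GC content, with a Spearman rho of −0.92 over the 10 genes. The ratio between the ATRA libraries followed it too, with a rho of −0.89. These values describe 10 genes read in the same 4 libraries, which are not independent replicates. Over 14146 tested genes with a GC value, the rho of the fold change was −0.75 before correction. Set beside its own GC decile, Dcx was 2.61 above the decile's median log2 fold change of 1.03, and Elavl4 0.72 above it. Tubb3 was 1.49 below its decile's median of −1.31, and Stmn2 1.25 below its own of 0.60. Mapt was 0.54 above its decile's median, and Map2, Gap43, Crmp1, Elavl3 and Ina were within 0.29 of theirs. The ratio between the ATRA libraries was −1.03 for Tubb3 and −0.81 for Elavl3, close to the medians of their deciles (−1.07 and −0.82). It was −0.23 for Stmn2, whose decile had 0.46, and 1.07 for Map2, whose decile had 0.26. After correction 0 of the 10 members had ATRA libraries more than 1 apart on the log2 scale, against 4 before. The correction still moved the ATRA libraries of Stmn2 (from −0.23 to −0.61), Ina (from −0.42 to 0.58) and Gap43 (from 0.04 to 0.07) farther apart. Those of the other members came closer.

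**Figure D3:**
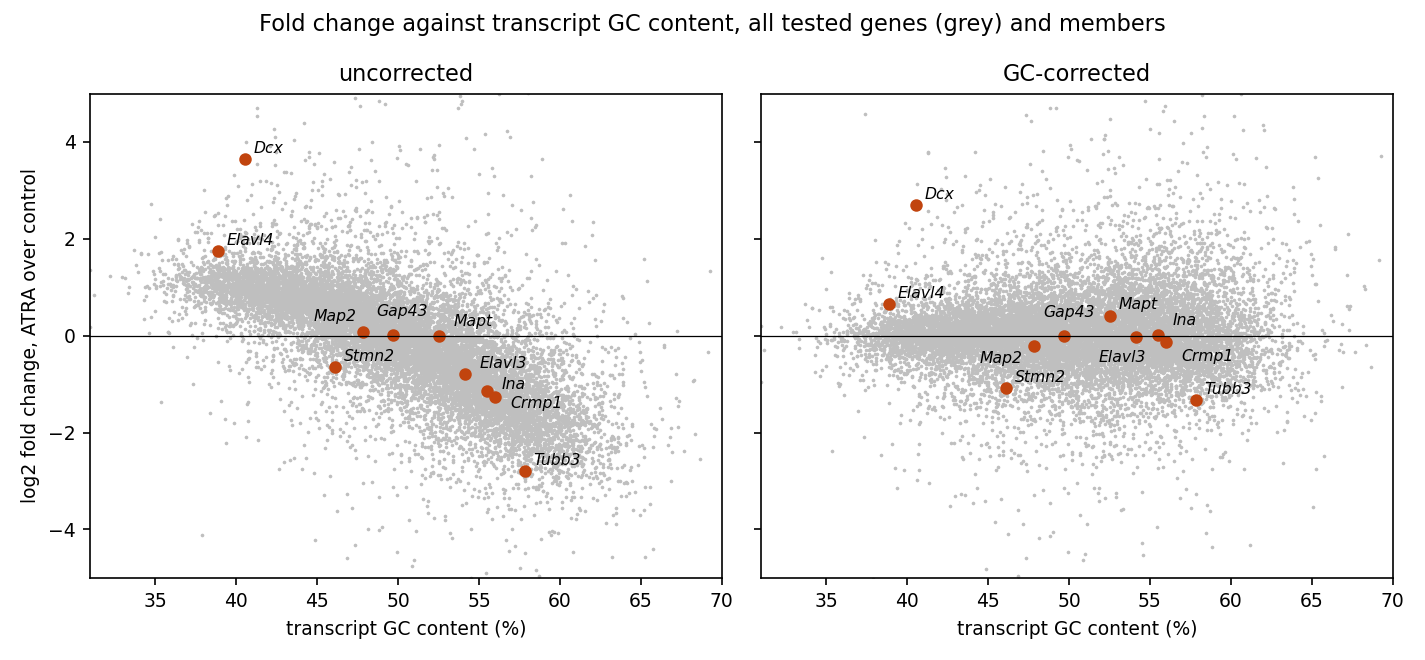
Log2 fold change (ATRA over control) against transcript GC content for the tested genes (grey) and the members (red), before and after GC correction, with genes beyond the axes not drawn. Before correction the members slope down with the grey points, with Dcx above and Tubb3 and Stmn2 below them, and these 3 stay apart after it.

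Levels of different members were compared as CPM per kilobase of merged exons, without GC correction. The order depends on this length. Merged exons span 5602 bases for Stmn2, 7046 for Crmp1 and 16449 for Map2. Their longest protein-coding transcripts have 2073, 3051 and 6258 bases, so these genes stand lower here than per transcript length. For Tubb3 (1868) and Ina (3240) both lengths are equal, and the other members lie between. The order per transcript length was not tested. In the controls Stmn2 (63.3 ± 6.26, mean ± SD, n = 2) and Tubb3 (56.0 ± 6.53) came first and overlapped between libraries. They exceeded 94.8% and 93.8% of the 14146 tested genes with a length, so that these neuronal markers were already among the more abundant transcripts at 0 h. Ina (23.2 ± 0.965) and Gap43 (21.6 ± 0.811) followed, each above the next in both libraries, and then Crmp1 (10.8 ± 0.0869). Elavl3 (1.15) and Map2 (1.05) overlapped with each other, as did Mapt (0.592) and Elavl4 (0.589). Dcx, at 0.0288, exceeded 0.290% of these tested genes, a set that it entered through its ATRA libraries alone.

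With ATRA the order per kilobase of merged exons, again without GC correction, changed among the leading genes. With the correction the log2 fold change moved from −1.13 to 0.01 for Ina and from −2.80 to −1.33 for Tubb3. The order in corrected levels was not tested. Stmn2 stayed first (40.5 ± 4.48), and Gap43 (21.8 ± 0.431), whose level was nearly that of the controls, came second. Ina (10.5 ± 2.16), Tubb3 (7.98 ± 3.86) and Crmp1 (4.45 ± 2.48) followed, each overlapping the next. Tubb3 went from above 93.8% of genes to above 61.7%. From Crmp1 down, each gene of the order Elavl4 (1.99), Map2 (1.11), Elavl3 (0.660), Mapt (0.583) and Dcx (0.360) overlapped its neighbour. Dcx was again last, overlapping Mapt, and above 10.7% of genes.

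Genes that work with the members were read from 8 lists. Of 128 tested list genes 1 passed uncorrected, where 0.603% of all tested genes did. After GC correction 35 passed (24 higher and 11 lower), where 16.7% of all tested genes did (8.82% higher and 7.86% lower). Without control replicate 1 or control replicate 2 the corrected calls in the lists below were all lost, in fits whose spread comes from the ATRA libraries alone. Such a loss cannot show whether a call depends on the controls. Among 13 tested tubulin genes other than Tubb3, all 13 had a negative log2 fold change uncorrected, and 4 were positive and 9 negative after correction. Uncorrected, 0 of the tubulins passed in edgeR. DESeq2, also without the correction, called 8 of the 13 lower, where it called 2573 of all 14256 tested genes lower. The list had a median edgeR log2 fold change of −1.36 against −0.02 over all genes. After correction Tuba4a, chosen after its value was seen, fell by 1.57 (edgeR, adjusted p = 0.0269) and the median was −0.26, against 0.01 over all genes. The most abundant tubulin, Tubb5, was at −1.15 and −0.86 in the 2 fits and did not pass, and Tubb2b, a beta-tubulin of neurons, at −1.48 and −1.33 (edgeR, adjusted p = 0.0990 and 0.0682). Tubulin genes are close copies of each other, and reads that match several of them could be divided or lost in the authors' counting.

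Among 20 tested microtubule partners, 0 passed uncorrected (median −0.15), and 4 rose and 1 fell after correction (median 0.02). The stathmin relative Stmn4 went from 3.95 and 4.99 CPM to 17.7 and 15.8 CPM with ATRA. Its log2 fold change was 1.91 (edgeR, adjusted p = 0.0708), and it rose by 2.73 after correction (edgeR, adjusted p = 0.0102), where Stmn2 fell. Stmn1 was at −0.48 and −0.29 and Stmn3 at −0.26 and 1.09, neither past the threshold in either fit. Of the Crmp1 relatives, Dpysl2 rose after correction (0.84, edgeR, adjusted p = 0.0385), while Dpysl3 (−1.18), Dpysl4 (−1.05) and Dpysl5 (0.75) did not pass. The Dcx relatives Dclk1 (−0.82), Dclk2 (−0.29) and Dclk3 (2.15) did not pass after correction either. Map4, a microtubule-binding protein of many cell types, was at 0.09 uncorrected, where its groups overlapped. It rose after correction (0.70, edgeR, adjusted p = 0.0385). Map1b, a microtubule-binding protein of growing axons, was at 0.02 after correction. Mapre1, the most abundant gene of the list by its mean over the 4 libraries (Map4 was higher in the controls), was at 0.83 and 0.02.

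Among 14 tested filament and growth cone genes, 0 passed uncorrected (median −0.08), and 5 rose and 3 fell after correction (median 0.75). Basp1, a growth cone protein related in function to Gap43, went from 75.7 and 91.4 CPM to 176 and 271 CPM. Basp1 was at 1.42 in log2 units (edgeR, adjusted p = 0.0783) and rose by 2.96 after correction (edgeR, adjusted p = 0.0320). Its corrected levels were 45.5 and 60.1 CPM in the controls and 190 and 634 CPM with ATRA. The ATRA libraries were 0.62 apart on the log2 scale before correction and 1.74 after it. The neurofilament genes parted, with Nefl falling by 1.60 after correction (edgeR, adjusted p = 0.00832) and Nefm rising by 1.47 (edgeR, adjusted p = 0.0457). Uncorrected they were at −1.46 and −0.11. The most abundant gene of this list, the actin-depolymerizing factor gene Dstn, was at 0.41 and −0.16.

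Among 24 tested RNA-binding genes, 0 passed uncorrected (median 0.67), and 1 rose and 1 fell after correction (median 0.05). The Elavl relatives Elavl1, expressed in most cells, and Elavl2 were at −0.08 and −0.41 after correction and did not pass. Celf1, the most abundant by its mean over the 4 libraries, was at 0.40 and −0.03. The gene that fell, chosen after its value was seen, was Ptbp1, a repressor of neuronal exons. It was the most abundant gene of the list in the controls. Ptbp1 was at −1.62 uncorrected and −0.97 after correction (edgeR, adjusted p = 0.0808 and 0.0248). The one that rose, chosen likewise, was Msi1, an RNA-binding protein of neural progenitors. Msi1 was at 0.17 uncorrected and 1.71 after correction (edgeR, adjusted p = 0.755 and 0.0226). Before correction its groups overlapped, with 10.2 and 7.13 CPM in the controls and 11.9 and 7.53 CPM with ATRA.

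Among 17 tested synaptic genes 0 passed uncorrected (median −1.03), and 3 rose and 3 fell after correction (median −0.36). The most abundant by its mean over the 4 libraries, the synaptic vesicle gene Vamp2, rose by 1.17 after correction (edgeR, adjusted p = 0.0285). Of the 27 genes of this list, 10 had too few counts to be tested. Among 12 tested proneural and neuronal transcription factors 0 passed uncorrected (median 0.97), and 2 rose and 1 fell after correction (median 0.74), with 15 of the 27 not tested. Sox11, the most abundant of them, was at 0.47 and 0.01.

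Among 14 tested genes of REST and its corepressors, a complex that represses neuronal genes in other cells, 0 passed uncorrected (median 0.05), and 3 rose and 1 fell after correction (median −0.05). The gene that fell was Rest itself, from 168 and 143 CPM to 96.3 and 118 CPM. Its log2 fold change was −0.54 (edgeR, adjusted p = 0.177), and −0.89 after correction (edgeR, adjusted p = 0.0171). The most abundant of the list, the demethylase gene Kdm1a, was at 0.22 and 0.52. Among 14 tested neural progenitor genes, 1 rose uncorrected and 6 after correction, and 0 fell in both (median 0.31 and 0.81). Sox1, a transcription factor of early neural progenitors, rose from 1.60 and 1.56 CPM to 23.8 and 30.7 CPM, by 4.10 (edgeR, adjusted p = 0.0281) and by 5.67 after correction. Its corrected levels with ATRA were 26.0 and 75.3 CPM, 1.54 apart on the log2 scale against 0.37 before correction.

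**Figure D4:**
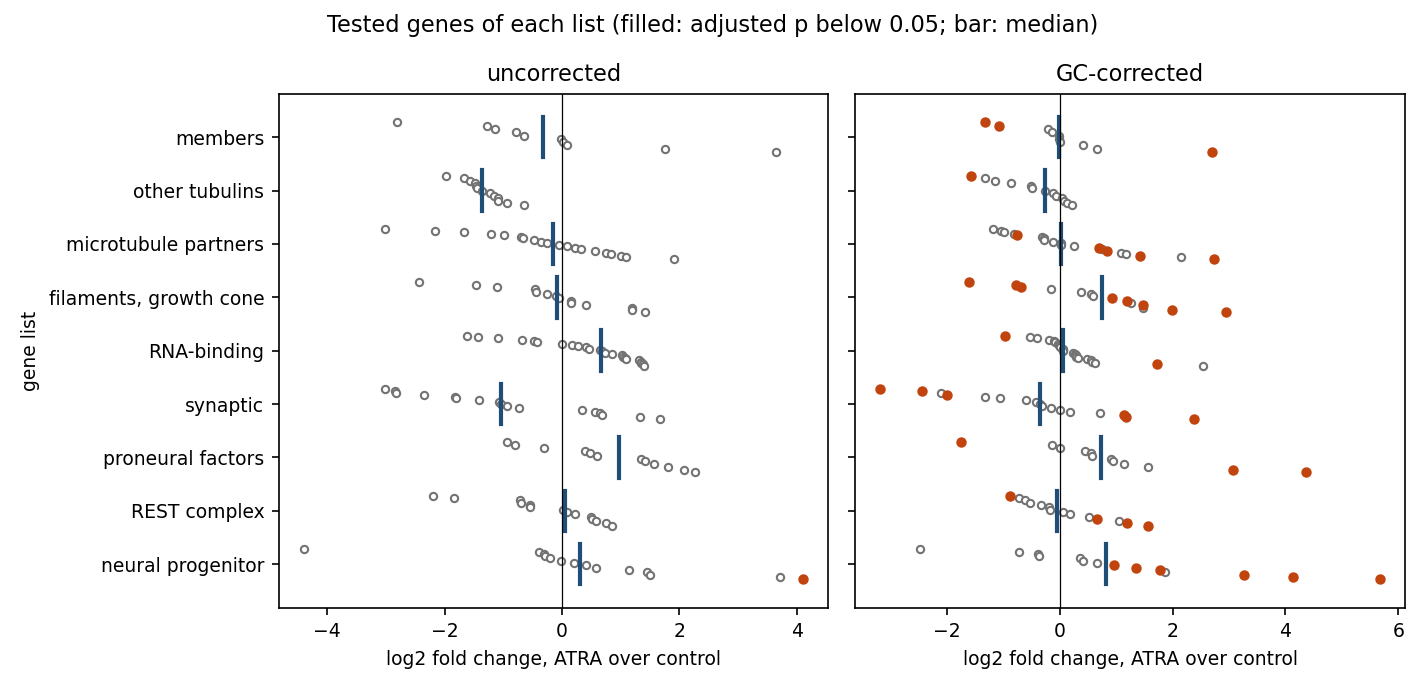
Log2 fold change of each tested gene (points) in the members and 8 related lists, before (left) and after GC correction (right), with a bar at each list's median. Filled points passed at an adjusted p below 0.05, which 1 list gene (Sox1) did before correction and 35 did after it. After correction the members' median lies at −0.01.

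Markers of pluripotent cells were present in all 4 libraries, with a summed level of 3614 and 3611 CPM over 9 genes in the controls and 1518 and 1083 CPM with ATRA. Of the 9, 2 fell (6 after GC correction). The counts of markers called stand beside 0.435% higher and 0.168% lower of all tested genes uncorrected. After correction these shares were 8.82% and 7.86%. Of 10 glial markers, 6 were tested and 0 passed (1 rose and 1 fell after correction). Their summed level was 48.0 and 43.9 CPM in the controls and 34.5 and 37.3 CPM with ATRA, with Slc1a3 the most abundant. The genes S100b and Aqp4 had at most 0.103 CPM in any library and Gfap 0.516 to 1.70 CPM. Slc1a3 was the glial marker that fell after correction and Sox10, at 0.356 to 2.05 CPM, the one that rose. Before correction the groups overlapped in Sox10, with 1.00 and 0.356 CPM in the controls and 2.05 and 0.516 CPM with ATRA. The 8 endoderm markers summed to 27.1 and 27.6 CPM in the controls and 56.3 and 84.7 CPM with ATRA, and of the 6 tested 0 passed uncorrected and 5 rose after correction. The 6 mesoderm markers summed to 183 and 156 CPM against 18.1 and 26.2 CPM, the 7 trophectoderm markers to 490 and 474 CPM against 267 and 137 CPM, and the 6 fibroblast markers to 214 and 153 CPM against 105 and 104 CPM. Of the genes in these 3 lists, 1 mesoderm marker fell before correction and 0 of the others passed. After correction 3 mesoderm markers and 1 trophectoderm marker fell, and 2 trophectoderm markers and 1 fibroblast marker rose. The sums are not GC-corrected and are carried by a few abundant genes, Krt8 and Krt18 of the trophectoderm list and Col1a1 of the fibroblast list. The log2 fold changes of Krt8, Krt18 and Col1a1 were −2.12, −1.31 and −1.86 uncorrected. After correction they were −0.87, −0.16 and −0.15. The part of other cell types in the values of the members was not tested.

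By the distance between log2 CPM profiles over the 4 libraries, the genes most like Stmn2, the most abundant member, were Tgif1 (0.0395) and Adh5 (0.0567). With only 4 libraries such likeness is common, and 1670 tested genes lay within 0.5 of the profile of Stmn2.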

How the data were processed

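The authors deposited 1 table of raw, whole-number counts of reads for each library, with genes by symbol. Per the submitters' processing notes, the tools were HTSeq 0.6.0, TopHat2 2.0.7, Cuffdiff 2.0.2 and Cufflinks 2.0.2 on mm10, whose roles are unstated. Gene annotation and strand setting: not given in the sources used here. The 5 summary lines of each table entered neither library sizes nor tests. Reads in no gene made up 63.4% to 66.2% of each library's total and ambiguous reads 0.158% to 0.254%.

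Groups and replicate numbers came from the titles. No label says that replicates came from separate cultures, so p-values cover the spread of these libraries alone, and that spread may be technical. Counts of replicates differed beyond sampling noise (chi-square over its degrees of freedom, 9.65 in the controls and 76.9 with ATRA). The members, lists and tests were chosen with earlier results of these data known.

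Counts were fitted over the whole table with edgeR 4.0.16 in R 4.3.3 (default expression filter by group, TMM, robust quasi-likelihood F test, no covariate), with Benjamini-Hochberg adjustment over 14256 genes and a threshold of 0.05. The SE was taken as the absolute log2 fold change over the square root of F. The GC correction fitted each library's deviation of log2 CPM (prior count 2) from the gene's mean against transcript GC content by robust regression (MASS 7.3.60.0.1) on a natural spline of 5 degrees of freedom, over genes whose mean log2 CPM exceeded 1, and the fit entered edgeR as offsets. GC content is that of the longest protein-coding transcript in GENCODE M21, to which 21777 symbols matched directly and 1278 through an older symbol, with 365 unmatched. DESeq2 1.42.0, its size factors, other filters, a replicate block and each library left out were alternatives, and a fit that is not robust was added after seeing the data. The functions were tested on simulated data.

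Genes named were the members and their family relatives, and in each list the called genes with the smallest p (at most 3) or the most abundant gene where none passed uncorrected, with Rest and the 2 genes most like the most abundant member. CPM values use TMM-scaled sizes. Floors and counts cover counting error only.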

Additional observations from a re-analysis of the deposited data

How the results depend on the processing

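The fit reported above called 86 genes (62 higher and 24 lower), 0 members and 1 of the 128 tested list genes. Counts of genes, members and list genes follow in that order for each alternative. They were 156, 2 and 3 with DESeq2 size factors, 4350, 5 and 43 with DESeq2 (1777 higher and 2573 lower), 2807, 4 and 31 with no filter on low counts (816 higher and 1991 lower) and 33, 0 and 1 with at least 5 CPM in 2 libraries, a filter that left Dcx and Mapt untested. With the GC correction they were 2378, 3 and 35 (1257 higher and 1121 lower). A fit that is not robust, added after seeing the data, gave 110, 0 and 2, and 2440, 3 and 35 with the correction.

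Leaving out an ATRA library moved the count of genes most. They were 82, 1 and 1 without control replicate 1, 325, 1 and 5 without control replicate 2, 10952, 8 and 95 without ATRA replicate 1 and 7781, 7 and 77 without ATRA replicate 2, and in the same order 53, 0 and 0, 66, 0 and 0, 7426, 5 and 76 and 5329, 4 and 70 with the GC correction. By construction the spread then comes from the other group alone.

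A replicate block gave 4212, 5 and 44 (1237 higher and 2975 lower), and 2952, 3 and 52 with the GC correction. No label ties equal replicate numbers to a shared day or culture, and with 2 pairs the deviations of same-numbered libraries correlated at 0.183 over genes, and at −0.0345 after GC correction, so the numbers were not taken as pairs.

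Dcx, Tubb3, Stmn2, Crmp1 and Elavl4 had 1 direction in all alternatives that tested them. Map2 reversed to −0.0085 with the replicate block, −0.22 with the GC correction (robust or not), −0.27 with both, and −0.53 without ATRA replicate 2 (each library left out in turn, −0.53 to 0.51). With the correction it was −0.14, −0.30 and −0.70 without control replicate 1, control replicate 2 and ATRA replicate 2. Gap43 reversed to −0.040 with no filter, −0.0075 with the GC correction (robust or not), −0.0070 with correction and replicate block, −0.028 without control replicate 2 (each left out in turn, −0.028 to 0.046), and, corrected, −0.067 without control replicate 2 and −0.028 without ATRA replicate 2. Mapt reversed to 0.0066 with DESeq2 size factors, 0.0042 with DESeq2, 0.41 with the GC correction (with a replicate block or not robust, 0.41 and 0.41) and 0.28 without ATRA replicate 2 (each left out in turn, −0.40 to 0.28). Corrected and without control replicate 1, control replicate 2, ATRA replicate 1 and ATRA replicate 2 it was 0.38, 0.41, 0.31 and 0.51. Ina reversed to 0.010 with the GC correction (robust or not), and, corrected, to 0.098 without control replicate 2 and 0.30 without ATRA replicate 1. Elavl3 reversed to 0.068 in the corrected fit without control replicate 1. The cause of these changes was not tested. Of the members, Dcx rested on the fewest counts, 9 and 10 in the controls.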
